A study of Mus musculus with 25 samples.

Results

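The 4 mouse Hox clusters and the clustered protocadherin genes were examined together with the DNA on either side of them. Of the 22749 intervals in the count table, 139 started in 1 of 5 windows of the mouse genome (build mm9): chr6 from 51.1 to 53.2 Mb around Hoxa, chr11 from 95.0 to 97.2 Mb around Hoxb, chr15 from 101.7 to 103.5 Mb around Hoxc, chr2 from 73.5 to 75.6 Mb around Hoxd, and chr18 from 36.5 to 38.5 Mb around the alpha, beta and gamma protocadherins. An interval is the stretch between neighbouring CCCGGG sites. Within each window the cluster was taken as the stretch from its first to its last gene, at approximate mm9 positions, and the rest of the window as its flanks. The bounds were 52.1 to 52.28 Mb for Hoxa, 96.05 to 96.24 Mb for Hoxb, 102.74 to 102.87 Mb for Hoxc, 74.48 to 74.61 Mb for Hoxd and 37.08 to 38.01 Mb for the protocadherins. The Hox clusters held 10 intervals (2 in Hoxa, 1 in Hoxb, 3 in Hoxc and 4 in Hoxd) and their flanks 96 (18, 47, 26 and 5). The protocadherin cluster held 11 intervals and its flanks 22. The windows are set by position, and the members and bounds were chosen with earlier results of these data known.

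The samples were genomic DNA from 25 FVB mice in 5 groups of 5. Islets of Langerhans, the endocrine part of the pancreas, came from control mice at postnatal day 21 (P21), small-litter mice at P21, control mice at P180 and small-litter mice at P180. The fifth group was exocrine tissue of control mice at P21, which was whole pancreas, about 98% exocrine, and so still held some islets. Control mice had been suckled in litters of 9 pups and small-litter mice in litters of 4 until P21. The litters are not named, so siblings may share a group, and p-values measure the spread between these samples. All mice were of 1 strain, and no genetic change is given in the labels. Marker genes of islet or acinar cells could not be used as a check, because the table holds methylation signal without gene names. Total counts per library ran from 2912624 to 10591677, with a median of 4427238. Levels are given as CPM, counts scaled to library size.

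Hox genes encode homeodomain transcription factors that set position along the body axis, and they lie in the order in which they are used along that axis. Their clusters are rich in CpG dinucleotides, and where the genes are silent they are commonly held by Polycomb complexes rather than by DNA methylation. The clustered protocadherins encode cell adhesion proteins best known in neurons, where each cell uses a small choice of promoters. Alpha and gamma genes join 1 of many variable first exons to shared constant exons, while each beta gene is a single exon, and methylation of the variable promoters accompanies their silence. The assay, methylation-specific amplification with sequencing (MSA-seq), cuts unmethylated CCCGGG sites with SmaI, opens the methylated ones with XmaI and amplifies the pieces whose ends took an adaptor. A higher count thus stands for more methylation at both ends of an interval, on a relative scale with no absolute level. Interval length also sets how well a piece amplifies, so levels of different intervals are given beside those of all intervals of like length.

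The sites that the assay reads are common in front of Hox genes. In the RefSeq promoter table (build GRCm38.p6), 26 windows of 250 bases before a gene start matched 24 of the 39 Hox and 2 Evx genes, Evx genes being the homeobox genes that end Hoxa and Hoxd. Of these windows, 8 (30.8%) held CCCGGG, a palindrome that reads alike on both strands, against 11.2% of all 32851 such windows. The median number of CpG dinucleotides was 12.5 in the Hox and Evx windows and 6 over all. The 4 windows here show how differently the site can sit, with CCCGGG in capitals and each window read 5′ to 3′ on the strand of its gene. They are reference sequence on another build than the count table, so whether these sites bound a listed interval is not analysed here. The Hoxd11 window is chr2:74682073-74682322 (plus strand), with the site beginning 153 bases before the start, and the Hoxd4 window is chr2:74721728-74721977 (plus strand), with the site 166 bases before it. The Hoxa6 window is chr6:52208673-52208922 (minus strand), with the site 131 bases before the start and 24 CpG dinucleotides around it, and the Hoxb1 window is chr11:96365508-96365757 (plus strand), with the site 34 bases before the start.
Hoxd11: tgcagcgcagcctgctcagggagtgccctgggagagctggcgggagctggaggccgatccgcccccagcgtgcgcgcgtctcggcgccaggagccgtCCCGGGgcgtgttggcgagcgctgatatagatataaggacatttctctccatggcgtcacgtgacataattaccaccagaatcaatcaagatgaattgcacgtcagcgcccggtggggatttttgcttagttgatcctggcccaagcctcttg
Hoxd4: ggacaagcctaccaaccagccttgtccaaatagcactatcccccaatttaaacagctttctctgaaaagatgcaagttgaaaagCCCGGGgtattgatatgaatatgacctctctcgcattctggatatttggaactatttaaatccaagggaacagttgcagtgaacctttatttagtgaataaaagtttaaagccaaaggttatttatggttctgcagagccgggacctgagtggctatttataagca
Hoxa6: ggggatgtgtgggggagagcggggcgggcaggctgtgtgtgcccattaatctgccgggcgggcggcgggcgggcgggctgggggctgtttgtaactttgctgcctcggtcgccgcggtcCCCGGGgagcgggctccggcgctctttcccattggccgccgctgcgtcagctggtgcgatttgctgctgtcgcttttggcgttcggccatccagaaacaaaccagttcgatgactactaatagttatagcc
Hoxb1: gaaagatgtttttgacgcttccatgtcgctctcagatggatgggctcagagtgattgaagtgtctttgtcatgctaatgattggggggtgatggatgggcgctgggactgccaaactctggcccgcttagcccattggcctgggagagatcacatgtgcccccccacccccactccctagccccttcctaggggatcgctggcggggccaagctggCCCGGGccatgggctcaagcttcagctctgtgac
Hoxd11 belongs to the genes used toward the tail end of the body axis and Hoxb1 to those of the hindbrain.

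All 10 intervals of the Hox clusters were low. Their mean over the 25 libraries ran from 1.78 to 10.1 CPM with a median of 5.04 CPM, against a median of 15.5 CPM (2.28 to 248 CPM) in the 96 flank intervals and 17.2 CPM over the whole table. Each of the 10 lay under the median of all intervals and also under the median of its own length class, and on average few intervals of like length were lower: the median percentile within the length class was 5.96, against 34.5 in the Hox flanks. None of the 10 exceeded 30 CPM, while 31 of 96 flank intervals did (32.3%), close to the 35.2% of the whole table. The flanks were not without low intervals, since 39 of the 96 lay at or under the highest interval of the clusters. The 6 flank intervals that started within 100 kb of a cluster bound had a median of 56.1 CPM (3.53 to 102 CPM), with 2 of them under 10 CPM, the 37 from there to 500 kb a median of 13.4 CPM and the 53 beyond a median of 15.7 CPM. Among intervals of like length these flank groups had median percentiles of 45.3, 30.1 and 37.7. The 6 nearest were split, with percentiles of 70.7, 67.0, 13.1, 69.0, 23.7 and 12.6. Such levels describe the intervals the table lists, since the filter behind that list is not known, and no test was made between cluster and flank intervals.

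The protocadherin cluster was high instead. The median of its 11 intervals was 56.5 CPM (4.67 to 282 CPM), against 28.3 CPM (3.63 to 412 CPM) in its 22 flank intervals, and 8 of the 11 exceeded 30 CPM (72.7%) against 9 of the 22 (40.9%). Within length classes the median percentile was 75.8 in the cluster and 67.9 in its flanks. The protocadherin flanks were thus themselves above the middle of the table, and the cluster differed less from them in percentile than the Hox clusters did from theirs. The intervals of both clusters also differed in how they sit together. None of the 10 Hox cluster intervals shared a site with another listed interval, against 37 of 96 in the Hox flanks (38.5%), 6 of 11 in the protocadherin cluster (54.5%) and 44.3% of the whole table. Listed intervals numbered 15.9 per Mb in the Hox clusters and 12.7 per Mb in the Hox flanks, and single clusters went opposite ways: Hoxb held 5.26 per Mb against 23.4 per Mb in its flanks, and Hoxd 30.8 per Mb against 2.54 per Mb.

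**Figure D1:**
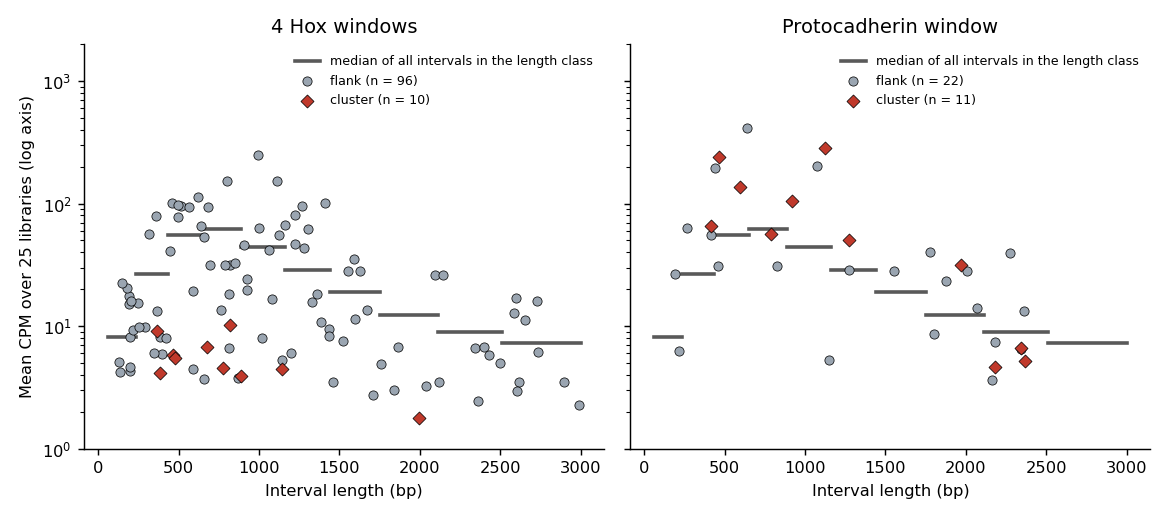
Mean CPM over the 25 libraries (log axis) against interval length for the 4 Hox windows (left) and the protocadherin window (right). Diamonds are cluster intervals, circles are flank intervals and horizontal lines are the median of all 22749 intervals in each of 10 length classes. All 10 Hox cluster intervals lie under the line of their class, while 7 of the 11 protocadherin cluster intervals lie on or above theirs.

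In Hoxa, the interval chr6:52137140-52138282 read 1.71, 5.02, 0.307, 4.27 and 4.85 CPM in control P21 islets and 4.57, 9.45, 4.27, 8.68 and 3.74 CPM in exocrine tissue. The other islet groups averaged 3.16 ± 1.91 CPM (SD, n = 5) in small-litter P21, 5.02 ± 2.00 CPM in control P180 and 4.88 ± 2.32 CPM in small-litter P180 mice. The groups overlapped throughout. The second Hoxa interval, chr6:52177566-52177954, averaged 3.67 ± 1.90 CPM in control P21, 3.10 ± 1.90 CPM in small-litter P21, 6.67 ± 2.00 CPM in control P180, 4.66 ± 1.36 CPM in small-litter P180 islets and 2.63 ± 0.464 CPM in exocrine tissue. Exocrine tissue was the lowest group here and the highest in the first interval, so the 2 Hoxa intervals did not order the groups alike.

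The single interval of the Hoxb cluster, chr11:96193559-96194379, was the highest of the 10. It read 12.3, 6.69, 6.75, 4.60 and 4.85 CPM in control P21 islets, 10.7, 4.22, 5.64, 6.61 and 11.3 CPM in small-litter P21 islets, 9.57, 15.2, 6.82, 9.29 and 12.3 CPM in control P180 islets, 9.22, 15.5, 16.8, 13.4 and 9.36 CPM in small-litter P180 islets and 16.8, 9.86, 13.0, 10.2 and 12.5 CPM in exocrine tissue. Both P180 groups and the exocrine group had higher means than both P21 islet groups, with overlap in each case. The log2 difference of exocrine tissue from control P21 islets was 0.79 ± 0.32 (SE; edgeR adjusted p = 0.0836), and it passed in DESeq2 (0.85, adjusted p = 0.0368), with all 25 libraries in 1 fit (0.85, adjusted p = 0.0382) and without control P21 replicate 1 (1.10, adjusted p = 0.0284).

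In Hoxc, chr15:102846097-102846464 averaged 10.5 ± 4.47, 10.3 ± 2.98, 11.4 ± 5.15 and 6.64 ± 3.64 CPM in control P21, small-litter P21, control P180 and small-litter P180 islets, and 6.58 ± 2.62 CPM in exocrine tissue. Its neighbour chr15:102848933-102849610 averaged 5.98 ± 1.64, 5.64 ± 2.16, 6.42 ± 2.64 and 6.08 ± 1.70 CPM in the same order and 9.84 ± 2.17 CPM in exocrine tissue. Its tissue difference passed only against small-litter P21 islets (log2 0.82, edgeR adjusted p = 0.0443). The lowest interval of all 139, chr15:102858335-102860327, had 231 counts in the 25 libraries, and 3 libraries had none. It read 1.02, 2.63, 0, 0.821 and 2.55 CPM in control P21 islets and 7.11, 2.47, 4.27, 2.67 and 4.37 CPM in exocrine tissue, whose lowest library lay inside the islet range. The 3 other islet groups averaged between 0.983 and 1.29 CPM. Its log2 difference between tissues was 1.49 ± 0.56 (edgeR adjusted p = 0.0670), and it passed in DESeq2 (adjusted p = 0.0463), against small-litter P21 islets (1.99, adjusted p = 0.0203) and without control P21 islet replicate 2 (1.87, adjusted p = 0.0473) or 5 (1.78, adjusted p = 0.0431).

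In Hoxd, the 4 intervals stayed between 3.91 and 5.76 CPM on average. The interval chr2:74537351-74538127 averaged between 3.74 and 4.47 CPM in the 4 islet groups and 6.01 ± 4.07 CPM in exocrine tissue, where libraries ran from 1.85 to 10.8 CPM. The highest, chr2:74565066-74565534, averaged 5.75 ± 1.73 and 7.25 ± 2.44 CPM at P21 in control and small-litter islets, 4.24 ± 0.750 and 3.75 ± 2.37 CPM at P180, and 7.83 ± 1.49 CPM in exocrine tissue. The next, chr2:74565696-74566584, averaged from 2.79 ± 2.17 CPM in small-litter P180 islets to 4.70 ± 1.99 CPM in small-litter P21 islets. The last, chr2:74572619-74573095, averaged 7.55 ± 2.51 and 6.43 ± 2.25 CPM at P21, 3.40 ± 1.90 and 4.38 ± 1.39 CPM at P180 and 5.87 ± 1.43 CPM in exocrine tissue. Of the 10 Hox cluster intervals, 2 had islet group means more than 2-fold apart, against 5 of 96 in the Hox flanks. With few counts per library this ratio is loose: the median within-group SD of log2 CPM was 0.616 in the Hox clusters, 0.477 in their flanks and 0.421 over the table.

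**Figure D2:**
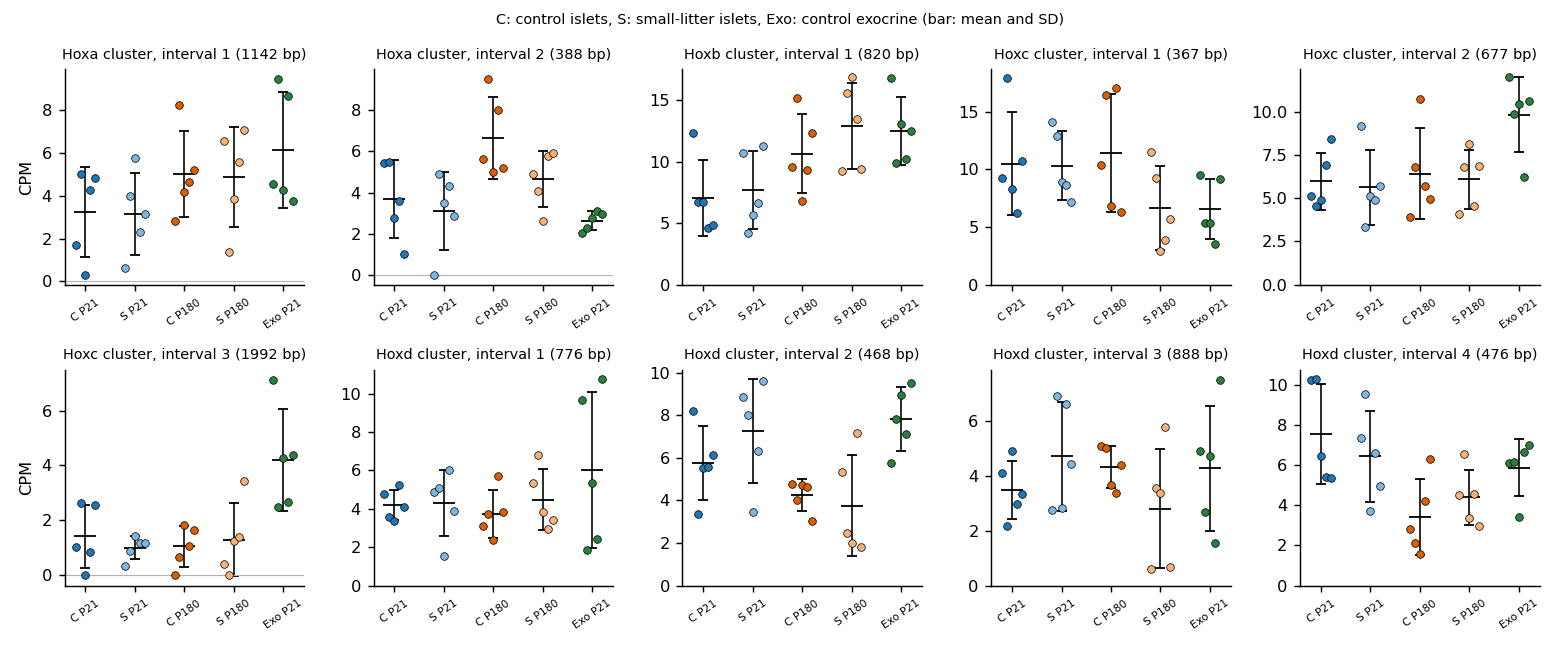
CPM of each library for the 10 Hox cluster intervals, in the order in which they are described, with points for the 5 mice of each group and bars for the mean and SD. No exocrine group stands apart from control P21 islets in any of the 10 panels.

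The protocadherin cluster was described from its alpha end to its gamma end. The only interval within the alpha genes, chr18:37166256-37167173, averaged 105 ± 25.8, 101 ± 15.3, 104 ± 26.6 and 116 ± 36.2 CPM in control P21, small-litter P21, control P180 and small-litter P180 islets, and 94.1 ± 23.8 CPM in exocrine tissue. Between the alpha and beta genes lay a pair of intervals that share a site, chr18:37400303-37401579 at 50.8 CPM and chr18:37401579-37402046 at 241 CPM on average. The second of them varied least between groups, with means from 228 ± 41.6 CPM in small-litter P21 islets to 250 ± 11.1 CPM in exocrine tissue. Within the beta genes, chr18:37633552-37635523 averaged 31.6 CPM and chr18:37644280-37646646 averaged 5.16 CPM, the latter from 3.63 ± 0.870 CPM in small-litter P180 islets to 6.35 ± 0.431 CPM in control P180 islets.

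The stretch taken as the gamma genes held 6 intervals, of which 4 followed one another without a gap between chr18:37979678 and 37982602. These 4 averaged 65.8, 282, 136 and 56.5 CPM in order. The highest of them, chr18:37980096-37981220, was the highest interval of the cluster and exceeded 98.4% of all intervals. It read 259, 191, 282, 256 and 295 CPM in control P21 islets and 368, 329, 304, 265 and 394 CPM in exocrine tissue, which overlapped (log2 difference 0.32 ± 0.15, edgeR adjusted p = 0.130). Just before them, chr18:37966038-37968219 read 1.35, 3.29, 1.71, 3.34 and 0.468 CPM in exocrine tissue and 1.71, 5.02, 6.13, 8.04 and 4.59 CPM in control P21 islets. Its log2 difference of -1.42 ± 0.50 did not pass (edgeR adjusted p = 0.0522), and passed in DESeq2 (adjusted p = 0.045), with all 25 libraries in 1 fit (-1.38, adjusted p = 0.0217), against small-litter P21 islets (-1.92, adjusted p = 0.00245) and with the length trend removed (-1.47, adjusted p = 0.0252). It also passed without control P21 islet replicate 1 (adjusted p = 0.0419), exocrine replicate 2 (adjusted p = 0.0496) or exocrine replicate 4 (adjusted p = 0.0458).

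The sixth interval of the gamma stretch as bounded here was the 1 cluster interval of the 5 windows that passed in edgeR. That test held the 10 control P21 libraries, and DESeq2 called 4 cluster intervals on them. chr18:38002084-38004425 read 4.44, 2.15, 3.37, 4.60 and 7.66 CPM in control P21 islets, 2.75, 2.66, 5.53, 2.87 and 4.01 CPM in small-litter P21 islets, 3.66, 2.74, 5.51, 4.01 and 6.29 CPM in control P180 islets, 5.53, 5.18, 8.57, 5.06 and 6.62 CPM in small-litter P180 islets and 23.7, 14.0, 12.2, 15.1 and 8.89 CPM in exocrine tissue. Every exocrine library lay above all 20 islet libraries, a separation that 3.55% of the intervals tested showed in either direction. Exocrine tissue was higher by 1.67 ± 0.36 on the log2 scale (edgeR adjusted p = 0.0041), and the value stayed between 1.47 and 1.94 when any 1 library was left out. This interval starts near the end of the cluster as bounded here, and it counts as flank when the bounds are drawn in by 20 kb. Since the bounds are approximate, whether it lies within the gamma genes is not known.

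Within each of the 25 mice, the pooled Hox clusters stood under their pooled flanks, and the protocadherin cluster stood over its flanks. The same intervals were read in every mouse, so the mice do not replicate this difference. Hoxb gave 47 of the 96 Hox flank intervals and 1 of the 10 cluster intervals. Median CPM of cluster and flanks was 4.32 and 31.8 in Hoxa, 10.1 and 15.2 in Hoxb, 6.79 and 9.03 in Hoxc, and 5.04 and 19.7 in Hoxd. The mean log2 CPM of the 10 Hox cluster intervals minus that of the 96 flank intervals was -1.73 ± 0.20 (SD, n = 5) in control P21 islets, -1.71 ± 0.23 in small-litter P21 islets, -1.69 ± 0.24 in control P180 islets, -1.84 ± 0.14 in small-litter P180 islets and -1.38 ± 0.23 in exocrine tissue. The 4 islet groups overlapped, and exocrine mice ran from -1.67 to -1.10, partly inside the islet range of -2.10 to -1.43. For the protocadherins the differences were 0.67 ± 0.20, 0.80 ± 0.12, 0.60 ± 0.13, 0.72 ± 0.23 and 1.00 ± 0.06 in the same order. Exocrine mice ran from 0.93 to 1.09 there, above all control islet mice and overlapping small-litter islet mice. With the length trend of each library removed, exocrine means were -1.42 and 0.91, and control P21 islet means -1.71 and 0.71. For the protocadherins exocrine mice then overlapped control P21 mice, with the lowest exocrine mouse at 0.81 and the highest control P21 mouse at 0.88. The mean over all intervals differed little, from 4.21 in exocrine tissue to 4.27 in control P180 islets on this scale.

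**Figure D3:**
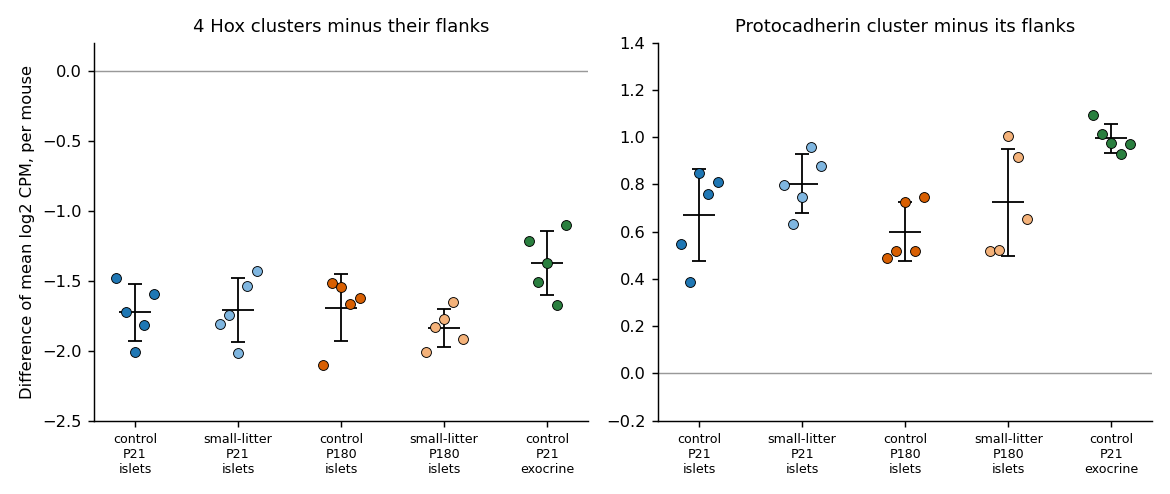
Mean log2 CPM of cluster intervals minus that of flank intervals in each mouse, for the 4 Hox clusters (left) and the protocadherin cluster (right), with bars for the mean and SD of 5 mice. All 25 Hox values are negative and all 25 protocadherin values positive, with exocrine means of -1.38 and 1.00.

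Exocrine tissue and islets of control P21 mice were compared over the whole table to ask which sites separate the tissues. Of 22514 intervals tested, 22.1% passed (8.07% higher and 14.0% lower in exocrine tissue). None of the 10 Hox cluster intervals passed in the edgeR test, while DESeq2 called 2. Of these 10, 3 had an unadjusted edgeR p under 0.05, against 35.4% of the Hox flank intervals and 36.4% of all intervals. In the Hox flanks 22 of 96 passed, 10 higher and 12 lower. In the protocadherin cluster 1 of 11 passed, the higher interval described above, and in its flanks 9 of 22 passed, 2 higher and 7 lower. Together, 1 of 21 cluster intervals and 31 of 118 flank intervals passed. The flank share of 26.3% is close to that of all intervals, and the gap between the cluster counts and that share was not tested. The median log2 difference was 0.43 in the Hox clusters, 0.07 in the Hox flanks, 0.06 in the protocadherin cluster, 0.08 in its flanks and -0.02 over all intervals. Exocrine and control P21 libraries did not overlap for 0 Hox cluster, 1 protocadherin cluster and 18 flank intervals, against 15.4% of all intervals.

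The direction of these calls moved with interval length. The 19 flank intervals that were lower in exocrine tissue had a median length of 459 bp, and 10 of them were under 500 bp, while the 12 that were higher had a median of 918.5 bp and none under 500 bp. In the shortest length class of the table, up to 233 bp, the median log2 difference was -1.11. With the trend on length removed from each library, 30 flank intervals passed, 16 higher and 14 lower (all intervals: 23.6%, with 11.6% higher and 11.9% lower). All 12 higher flank intervals passed again, and 14 of the 19 lower ones. The Hox clusters still held none, and the protocadherin cluster held 1 higher and 1 lower.

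**Figure D4:**
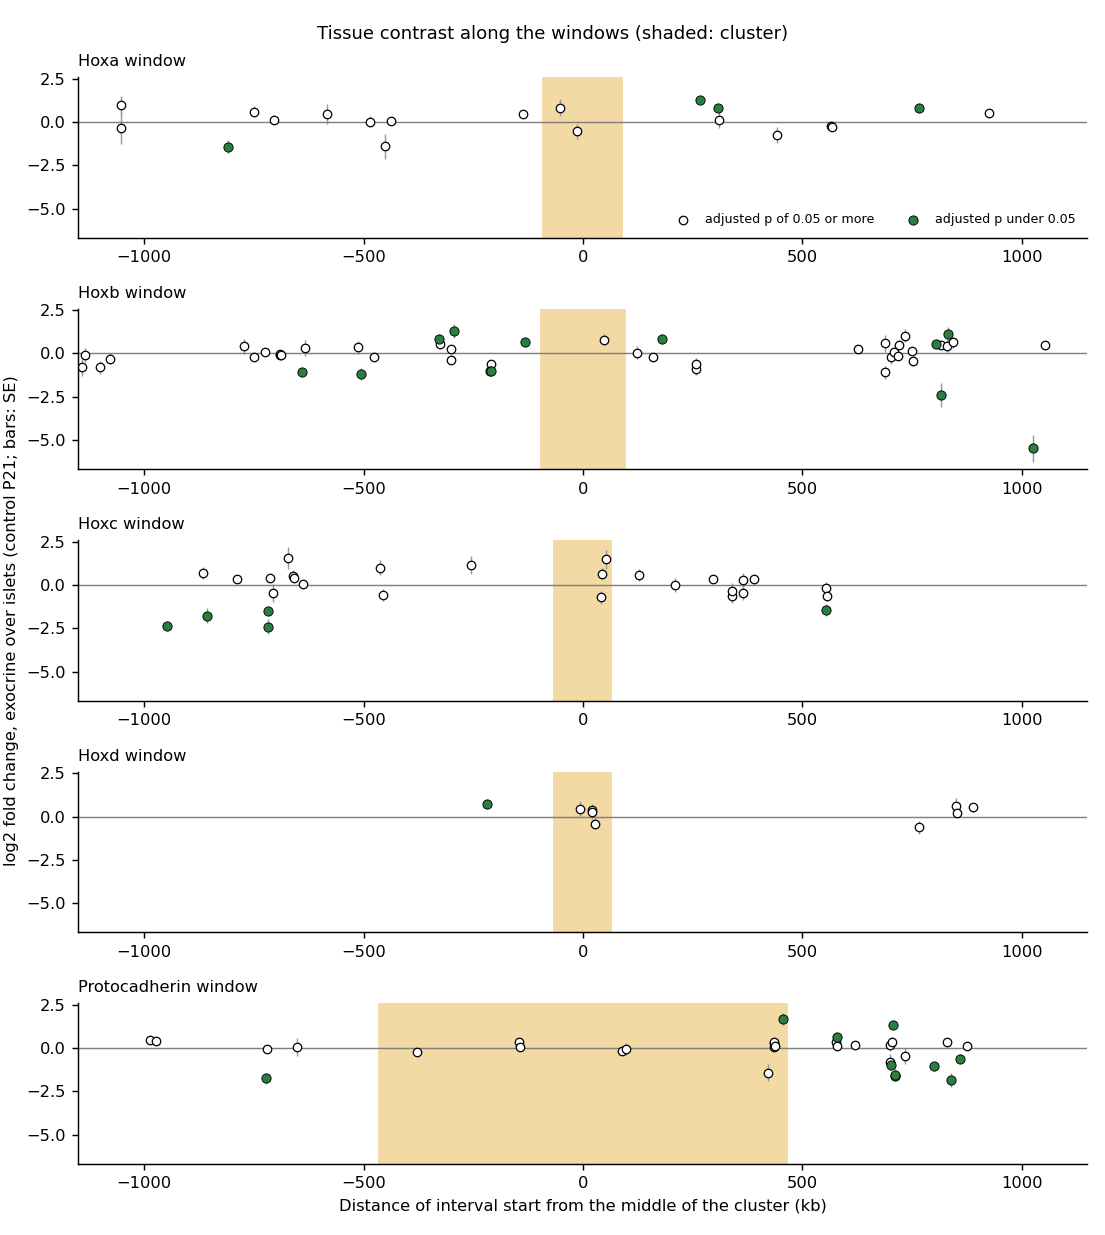
log2 fold change of exocrine tissue over islets (control P21, with SE) against the distance of each interval from the middle of its cluster, with the cluster shaded and filled points for an adjusted p under 0.05. Among 21 points in the shaded stretches 1 is filled, at the far end of the protocadherin cluster, against 31 of 118 outside them.

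Among the 18 Hoxa flank intervals, 3 rose and 1 fell in exocrine tissue (22.2% called, against 22.1% of all intervals). The largest rise was at chr6:52457566-52458475, which lies about 178 kb past the cluster as bounded here, on its Evx1 side. It read 26.3, 23.7, 27.9, 32.0 and 36.8 CPM in control P21 islets, 8.56, 21.3, 28.5, 25.3 and 37.9 CPM in small-litter P21 islets, 54.6, 42.6, 95.0, 39.1 and 36.9 CPM in control P180 islets, 37.3, 56.7, 58.8, 49.4 and 46.3 CPM in small-litter P180 islets and 66.4, 82.4, 66.0, 60.9 and 91.1 CPM in exocrine tissue. Exocrine libraries were above all P21 islet libraries, and the P180 islets lay mostly between them, with 1 control P180 library above every exocrine one. The tissue difference was 1.27 ± 0.18 on the log2 scale (edgeR adjusted p = 0.000181). Further out, chr6:52955125-52956680 rose from 23.3 ± 7.15 to 42.2 ± 11.2 CPM (log2 0.81 ± 0.24, adjusted p = 0.0242), a call lost without exocrine replicate 2 (0.69, adjusted p = 0.0621) or exocrine replicate 3 (0.77, adjusted p = 0.0522). On the other side, the 193 bp interval chr6:51380308-51380501 fell from 22.7 ± 13.6 to 8.79 ± 2.68 CPM (log2 -1.42 ± 0.38), and this was lost with the length trend removed (-0.42, adjusted p = 0.183).

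In the Hoxb flanks 12 of 47 intervals passed (25.5%), 6 higher and 6 lower, a share close to the 22.1% of all intervals, and the 1 interval of the cluster did not. The largest fall was in the 198 bp interval chr11:97170717-97170915, which read 8.87, 17.5, 2.45, 3.61 and 6.12 CPM in control P21 islets and 0, 0.411, 0.427, 0 and 0 CPM in exocrine tissue. Exocrine tissue held 4 counts in 5 libraries against 153 in control P21 islets, so the fitted log2 difference of -5.47 ± 0.79 (edgeR adjusted p = 0.000246) has little precision in its size. It was -4.53 with the length trend removed. The 135 bp interval chr11:96960306-96960441 fell from 5.89 ± 3.81 to 1.08 ± 1.16 CPM (log2 -2.40 ± 0.70, adjusted p = 0.0241), and this call was lost with the length trend removed (-1.11, adjusted p = 0.167). It was also lost when exocrine replicate 1, 3 or 4 or control P21 islet replicate 2 was left out (adjusted p from 0.0524 to 0.0613). Upward, chr11:95851645-95852513 rose from 2.38 ± 1.36 to 5.99 ± 1.23 CPM (log2 1.29 ± 0.42, adjusted p = 0.0368) and chr11:96976214-96977673 from 2.59 ± 0.976 to 5.98 ± 2.21 CPM (log2 1.13 ± 0.39, adjusted p = 0.0487). Both rises rest on few counts. The first lost its call when exocrine replicate 1, 2, 3 or 5 or control P21 islet replicate 3, 4 or 5 was left out (adjusted p from 0.0529 to 0.0716), and the second without exocrine replicate 1, 4 or 5 or control P21 islet replicate 1, 3, 4 or 5 (adjusted p from 0.0697 to 0.109).

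In the Hoxc flanks 5 of 26 intervals passed (19.2%, against 22.1% of all intervals), and all 5 were lower in exocrine tissue. The interval chr15:101856051-101857380 read 20.1, 17.0, 16.6, 30.4 and 21.4 CPM in control P21 islets and 5.59, 4.93, 4.91, 3.56 and 2.34 CPM in exocrine tissue, with no overlap. The other islet groups averaged 19.8 ± 2.36, 15.3 ± 5.75 and 17.9 ± 1.62 CPM, and 1 control P180 library, at 5.25 CPM, lay among the exocrine ones. The log2 difference was -2.36 ± 0.30 (edgeR adjusted p = 8.54e-05) and -2.37 with the length trend removed. The interval chr15:102086527-102086784 fell from 12.6 ± 6.50 to 2.48 ± 0.421 CPM (log2 -2.40 ± 0.42, adjusted p = 0.00116). It shares a site with chr15:102086784-102087477, which fell by 1.51 on the log2 scale (adjusted p = 0.000382) and was chosen for mention after its value was seen. With the length trend removed 3 of the Hoxc flank calls passed.

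The Hoxd flanks held only 5 listed intervals, and 1 of them rose, chr2:74326713-74327641, which lies 153.287 kb before the cluster. It read 19.1, 16.3, 11.0, 20 and 13.5 CPM in control P21 islets and 25.4, 26.9, 23.1, 30.7 and 31.2 CPM in exocrine tissue, with no overlap. The other islet groups averaged 15.0 ± 1.54, 20.8 ± 4.01 and 19.1 ± 4.01 CPM. The log2 difference was 0.72 ± 0.22 (edgeR adjusted p = 0.0293), and the call was lost without exocrine replicate 4 (adjusted p = 0.0677), control P21 islet replicate 3 (adjusted p = 0.0553) or control P21 islet replicate 5 (adjusted p = 0.0505).

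In the protocadherin flanks 9 of 22 intervals passed (40.9%, against 22.1% of all intervals). Of these, 8 were among the 17 past the gamma end and 1 among the 5 on the alpha side. The gap to all intervals and the split by side were not tested. Of the 22 intervals, 12 share a site with another listed interval, so the calls are not all separate sites. The largest rise was at chr18:38251050-38252849, which read 5.12, 4.78, 6.75, 5.74 and 6.89 CPM in control P21 islets and 17.6, 16.4, 15.4, 14.2 and 13.1 CPM in exocrine tissue. Small-litter P21 islets averaged 4.71 ± 1.72 CPM, and the P180 islets averaged 7.78 ± 3.70 CPM in control and 9.74 ± 1.09 CPM in small-litter mice. Exocrine tissue was higher by 1.33 ± 0.26 on the log2 scale (edgeR adjusted p = 0.00194). The other rise, chr18:38124474-38126748, went from 33.3 ± 6.70 to 53.4 ± 5.95 CPM (log2 0.63 ± 0.17, adjusted p = 0.0164). The largest fall, chr18:38383527-38383795, went from 73.4 ± 41.8 to 21.5 ± 8.44 CPM (log2 -1.83 ± 0.40, adjusted p = 0.00777), with overlapping libraries. On the alpha side, chr18:36823754-36823949 fell from 34.4 ± 17.5 to 10.7 ± 1.38 CPM (log2 -1.74 ± 0.33, adjusted p = 0.00168), with no overlap. Both falling intervals are under 500 bp, and their log2 differences were -1.15 and -0.75 with the length trend removed, still past the threshold.

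**Figure D5:**
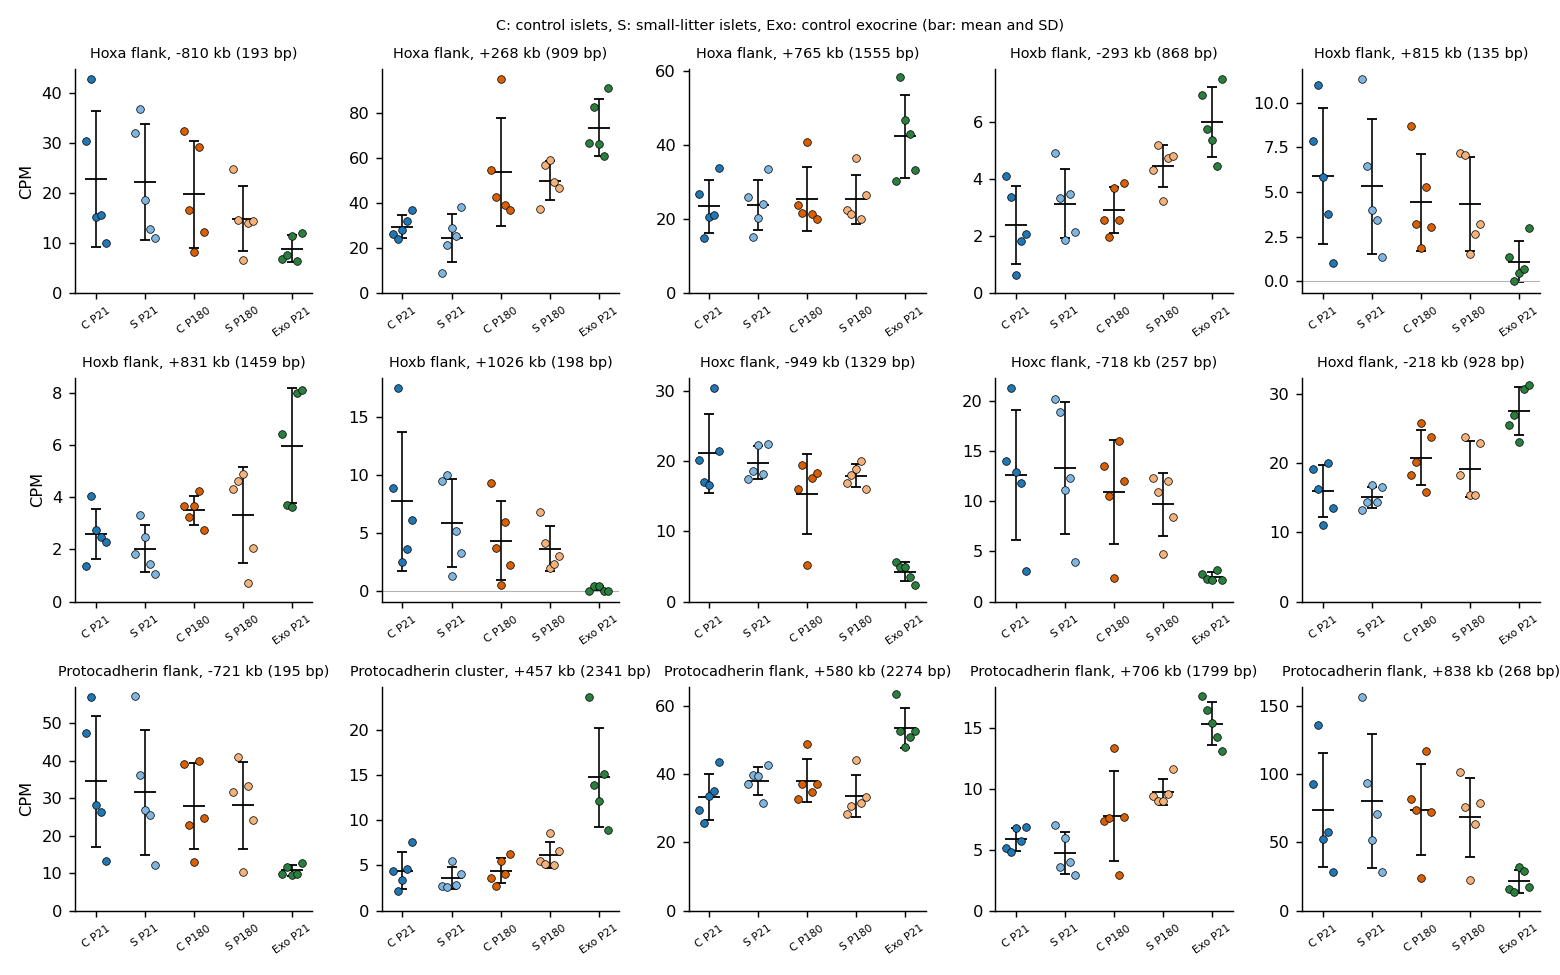
CPM of each library for the 14 flank intervals and the 1 cluster interval that are named for the tissue contrast, titled by window, distance from the middle of the cluster and length, with points for the 5 mice of each group and bars for the mean and SD. Exocrine libraries stand above all 20 islet libraries in the protocadherin cluster panel, and below all of them in the Hoxb panel of 198 bp.

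Age was compared between P180 and P21 islets over both litter sizes, the contrast that asks whether methylation at these sites shifts after weaning. No member passed in edgeR, with 0 of 9 Hox cluster, 0 of 11 protocadherin cluster and 0 of 118 flank intervals tested, against 0.212% of 22654 intervals (48). The remaining Hoxc interval, chr15:102858335-102860327, was too low in the islets to be tested. An unadjusted p under 0.05 was seen for 4 of the 9 Hox cluster intervals, 0 of the 11 protocadherin cluster intervals and 8 of the 118 flank intervals, against 9.57% of all intervals. The 4 went both ways. The Hoxb interval chr11:96193559-96194379 had a log2 difference of 0.70 ± 0.22, P180 minus P21 (edgeR adjusted p = 0.232), and the Hoxa interval chr6:52177566-52177954 one of 0.72 ± 0.34 (adjusted p = 0.512). The Hoxd intervals chr2:74565066-74565534 and chr2:74572619-74573095 had differences of -0.66 ± 0.26 (adjusted p = 0.396) and -0.84 ± 0.26 (adjusted p = 0.225). The Hoxb interval passed in limma voom with library weights (0.89, adjusted p = 0.0459), and its adjusted p under the other alternatives ran up to 0.263. DESeq2 called 0 cluster intervals for age.

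The lowest adjusted p for age among the members belonged to the Hoxa flank interval chr6:52457566-52458475, whose values in all libraries are given above. The log2 difference was 0.95 ± 0.20 (edgeR adjusted p = 0.0588), with 0.90 in control and 0.99 in small-litter mice. It passed in DESeq2 (adjusted p = 0.00539) and in limma voom (adjusted p = 0.017). In edgeR it passed with the length trend removed (adjusted p = 0.0413) and with the replicate number as a block (adjusted p = 0.0495). The other 4 of 8 alternatives missed, with adjusted p up to 0.0862. Of the 20 edgeR fits with 1 library left out, 1 passed, without small-litter P21 replicate 5 (1.05, adjusted p = 0.0428). The adjusted p in those fits ran up to 0.175. The age and tissue contrasts share the control P21 islets, so the P180 and exocrine differences at this interval are not independent. Within control mice alone and within small-litter mice alone, edgeR called 0 of 22654 intervals for age (0.0%), with 1051 and 1174 at an unadjusted p under 0.05, of which 7 and 10 were members.

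Litter size was compared at each age to ask whether early overnutrition left a trace in the islets. No member passed at P21, at P180 or in the interaction of litter size and age, and edgeR called 0 of 22654 intervals (0.0%) in each. An unadjusted p under 0.05 was seen in 210, 201 and 226 intervals, among them 0, 3 and 2 members. Log2 differences of small-litter from control islets ran from -0.22 to 0.46 in the Hox clusters at P21 and from -0.84 to 0.34 at P180. In the protocadherin cluster they ran from -0.25 to 0.56 at P21 and from -0.82 to 0.47 at P180. In the flanks they ran from -0.61 to 0.90 and from -1.06 to 1.00. The medians were between -0.11 and 0.06 in each of these sets at each age, and all of these differences missed the threshold.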

How the data were processed

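Genomic DNA of 25 mice was profiled by MSA-seq, and per the labels' protocols 500 ng of DNA were cut with SmaI and then XmaI, ligated, amplified and sequenced on a HiSeq. Build mm9, Bowtie 0.12.9, cutadapt and FastQC 0.10.1 are listed, per the submitters' processing notes. The assignment of reads to intervals, the treatment of duplicates and the filter behind the list were not given in the sources used here. What the authors deposited is a single table of unnormalized counts, with whole numbers whose totals differ between libraries. Positions are printed as the table gives them.

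Members were read from the table by the start of each interval. Cluster bounds are approximate mm9 positions from general knowledge, since no mm9 annotation was used, and no interval was given to a single gene. The members, bounds and lists were chosen with earlier results of these data known. Intervals were named by rule: cluster intervals that passed in any contrast, per flank and direction up to 2 intervals with the largest tissue difference among those that passed, and the highest interval of each cluster. All other cluster intervals are given for completeness.

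Counts were fitted over the whole table with edgeR 4.0.16 in R 4.3.3 (filterByExpr, trimmed mean of M-values scaling, robust quasi-likelihood test, Benjamini-Hochberg adjustment at 0.05). The tissue fit held the 10 control P21 libraries (22514 intervals) and the islet fit the 20 islet libraries with 1 mean per group (22654 intervals). Age was the mean of the P180 groups minus that of the P21 groups. The common biological coefficient of variation was 31.7% and 30.6%. Log2 levels used a prior count of 2. The length trend was removed with lowess (span 0.3). Levels per mouse have no test. Alternatives were other scaling, no filter, DESeq2 1.42.0, a filter at 50 mean counts, limma 3.58.1 voom, 1 fit of all libraries, the replicate number as a block, other cluster bounds (50 kb wider, 20 kb narrower), a prior count of 0.5 and each library left out. Replicates differed beyond sampling noise (chi-square per degree of freedom 3.6 to 32.1). The fits were tested on simulated data. Reads without molecular identifiers are not independent molecules. Figures used matplotlib 3.10.9.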

Additional observations from a re-analysis of the deposited data

Results flagged for a closer look

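Of 120 checks of 5 mice each for 1 mouse far from its group, 6 were positive, and chance gives about 1 in 20. In control P180 islets, replicate 3 accounted for 3 of them: it read 40.7 CPM at the Hoxa flank interval chr6:52955125-52956680 (other mice at most 23.6 CPM), 5.25 CPM at the Hoxc flank interval chr15:101856051-101857380 (others 16 to 19.4 CPM) and 48.8 CPM at the protocadherin flank interval chr18:38124474-38126748 (32.6 to 37.0 CPM). Control P21 replicate 1 read 12.3 CPM at the Hoxb cluster interval chr11:96193559-96194379 (4.60 to 6.75 CPM). Small-litter P180 replicate 5 read 11.6 CPM at the protocadherin flank interval chr18:38251050-38252849 (9.00 to 9.60 CPM). The mean log2 CPM of the 10 Hox cluster intervals was 2.38 in small-litter P180 replicate 4 (2.05 to 2.13).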

How the results depend on the processing

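For tissue, the number of cluster intervals called (1) became 4 in DESeq2 and 3 with all 25 libraries in 1 fit. It became 4 against small-litter P21 islets and 2 with the length trend removed. The filter at a mean of at least 50 counts gave 0, but it left neither the called protocadherin interval nor any Hox cluster interval to test. The number was 2 with bounds 50 kb wider and 0 with bounds 20 kb narrower. With 1 library left out it ran from 1 to 3: it was 3 without control P21 islet replicate 1, and 2 without control P21 islet replicate 2 or 5 or exocrine replicate 2 or 4. The number of flank intervals called (31) ran from 25 to 34 with 1 library left out and from 21 to 37 under the other alternatives. For age, cluster intervals called (0) became 1 in limma voom, and stayed 0 with any library left out. Flank intervals called for age (0) became 1 in DESeq2, 1 in limma voom and 1 with the length trend removed, and ran from 0 to 1 with 1 library left out (1 without small-litter P21 replicate 5). For age within a litter size, litter size and their interaction, all counts stayed at 0 under every alternative run. Cluster minus flank levels over all mice ran from -1.74 to -1.67 for Hox and stayed at 0.76 for the protocadherins.

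Replicate numbers were shared between groups, and whether they pair any mice is not known. Of 50 same-numbered pairs, 13 correlated over 0.1, with a range from -0.36 to 0.651. The median correlation was -0.000381 in same-numbered pairs and 0.000529 in pairs with other numbers. On average over the other groups, 1 of 25 libraries correlated best with its own number. A pairing between only 2 groups could be missed by that average. With the replicate number as a block, 21 flank intervals were called for tissue and 1 for age. Named flank intervals lost their tissue call with this block in Hoxa (chr6:52955125-52956680, edgeR adjusted p = 0.0744, and chr6:51380308-51380501, 0.0569) and Hoxd (chr2:74326713-74327641, 0.0609). So did chr11:95851645-95852513 (0.0607), chr11:96976214-96977673 (0.121) and chr11:96960306-96960441 (0.0958) in Hoxb. Hox cluster intervals had totals of 231 to 1276 counts over 25 libraries, and whether this depth bears on their number of calls was not tested. Of the flank intervals that were called, chr11:95851645-95852513 had 459 counts and chr11:96976214-96977673 had 434 counts. Each of these 2 lost its call in 7 of the 10 fits with 1 library left out.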
